A study of Mus musculus with 17 samples.

Results

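The genes described here are 58 developmental transcription factors of the homeobox, paired-box and T-box classes that lie outside the Hox clusters, grouped into 10 families. Their methylation was read at CCCGGG sites lying from 1000 bp upstream of the transcription start to the gene end and covered by at least 50 reads in at least 13 of 17 mice. By this rule 174 sites of the 18884 autosomal sites tested belonged to 44 of the 58 genes, and no site was shared by 2 of them. The other 14 genes, Pax3, Pax8, Pax9, Lhx3, Lhx9, Six3, Six6, Dlx5, Nkx2-3, Nkx6-2, Emx1, Otx2, Gbx2 and Tbx5, had sites only at lower depth and are not analysed here.

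DREAM, short for digital restriction enzyme analysis of methylation, was the assay, and it is a sequencing method in which each end of a fragment records whether a single CCCGGG carried methylation. All mice were C57BL/6, the tissue was whole blood, and no group carried a transgene or a targeted allele according to the labels. AL-young comprised 5 mice aged 4 months with food ad libitum, AL-old 7 mice aged 29 to 33 months with food ad libitum, and CR-old 5 mice aged 32 to 38 months under caloric restriction. The study describes the restriction as begun in early adulthood. There were 2 females and 3 males in AL-young, 5 females and 2 males in AL-old, and 2 females and 3 males in CR-old, and each mouse was sampled once. The libraries held 6407519 to 51612805 reads, and the member sites were read at a median depth of 397 reads per site and mouse.

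Homeobox, paired-box and T-box proteins are DNA-binding regulators that lay out the body plan in the embryo and keep cell types such as neurons, kidney, pancreas and heart muscle distinct. In blood cells most of their genes are silent. Their start sites usually sit in CpG islands, stretches rich in CpG that are mostly free of methylation in young tissue, and in silent genes of this kind the islands are commonly held by Polycomb proteins. Methylation here is the share of reads, in percent, that carried the methylated end. In whole blood a change in this share within a cell type and a change in the mix of cell types cannot be told apart.

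The sites on which the results turn are shown with 30 bases of mouse sequence (NCBIM37, the assembly also called mm9, forward strand), with the CCCGGG read by the assay in capitals. The first 6 were higher in AL-old than in AL-young, and the Irx3, Irx5 and Nkx6-1 sites were also lower in CR-old than in AL-old.
Evx2, coding exon, chr2:74494055-74494084: gcctggtagagcCCCGGGtggcggaagctg
Irx3, coding exon, chr8:94325066-94325095: ccgcccgcagctCCCGGGcgttcgggtggg
Irx5, untranslated exon, chr8:94881939-94881968: cgcgggccggagCCCGGGagccggggctcg
Irx1, coding exon, chr13:72100872-72100901: ccaccataggcgCCCGGGcccgcggcgctt
Lhx8, untranslated exon, chr3:153991535-153991564: ccggcacctgagCCCGGGcgcagctggccg
Nkx6-1, coding exon, chr5:102092717-102092746: gctaaagtagagCCCGGGcggcggtggcgg
For contrast, 2 sites outside islands in families without a called site are shown.
Dlx4, intron, chr11:95004054-95004083: gcaaaatgcctgCCCGGGatgacaaaatgt
Pitx1, intron, chr13:55930543-55930572: ctgtctaagtgaCCCGGGcctctctgtctc
The windows of the first 6 held 2 to 6 CpG each, and the Dlx4 and Pitx1 windows held 1, the CpG of the site itself. This count does not separate called from uncalled sites. The like window of the called Isl1 site also held 1, and those of the uncalled Pax1 and Six2 sites named below held 2 and 4.

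Both measured sites of Tbx18 were called, and the intronic stretch of 198 bases that holds them, chr9:87625069-87625266, has its 2 CCCGGG 152 bp apart and contains 28 CpG.
Tbx18, intron: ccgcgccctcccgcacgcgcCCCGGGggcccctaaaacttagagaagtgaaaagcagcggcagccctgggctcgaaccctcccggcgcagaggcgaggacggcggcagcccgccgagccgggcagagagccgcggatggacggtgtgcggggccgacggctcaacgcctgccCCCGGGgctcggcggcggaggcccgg

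In young mice nearly all of these sites were unmethylated. The AL-young mean was below 5% at 165 of 174 sites, between 5 and 90% at 7 sites and above 90% at 2 sites, both in coding sequence of Pax6, the regulator of eye development. CpG islands held 149 of the 174 sites. The exceptions to the low level were led by Cdx1, a regulator of the posterior body axis and intestine, whose 4 sites ranged from 27.8 to 81.9% in AL-young.

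Comparing AL-old with AL-young asked how these sites change with age. Methylation was called higher at 21 member sites in 11 genes and lower at 0, where a call required an edgeR adjusted p below 0.05 over all sites tested and group means at least 2 percentage points apart. Over all sites 3.95% were called higher and 6% lower, and over all CpG island sites 5.51% were called higher and 0.678% lower. Among the members 12.1% of sites were called higher, and 14.1% of those in islands. The members were chosen with earlier results of these data known, so their excess over these shares is described only and was not tested. Of the sites that were lower in AL-old, 2 reached an unadjusted p below 0.05 in edgeR, and limma also called 0. The AL-old mean exceeded the AL-young mean at 150 of the 174 sites, by at least 2 points at 59 and by at least 10 points at 15. It was the higher at 86.2% of member sites, 46.8% of all sites and 59.6% of all CpG island sites. The median difference was 1.09 points over the members, -0.0146 points over all sites and 0.034 points over all CpG island sites. At 8 of the 149 member sites with at least 50 reads in every mouse, all AL-old mice lay above all AL-young mice, or 5.37%, against 1.95% of all sites with that depth.

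**Figure D1:**
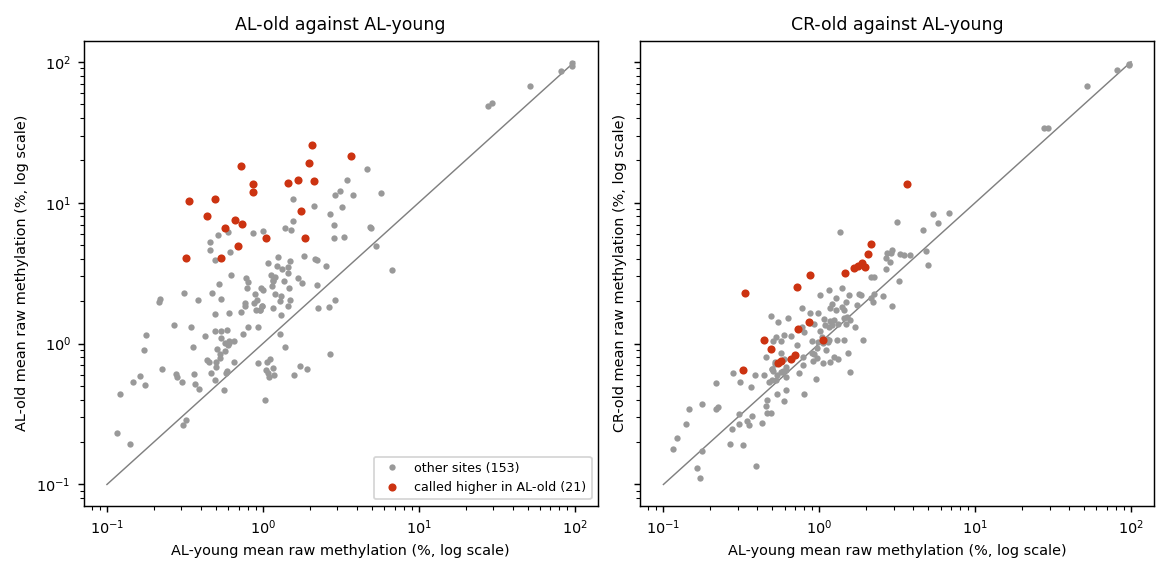
Mean raw methylation at the 174 member sites in AL-old (left) and CR-old (right) against the AL-young mean, both axes in percent on a log scale, with the line of equality. The 21 sites called higher in AL-old are in red and reached means of 4.03 to 25.8% in AL-old, while in CR-old the same sites had means of 0.652 to 13.5%.

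The methylation value used is the raw one. The authors' adjusted value multiplies the odds of methylation by a single factor per mouse, derived from spiked standards, and this factor ran from 0.896 to 1.13 in AL-young, from 0.872 to 3.96 in AL-old and from 0.885 to 1.80 in CR-old. It was at least 1.3 in all 5 AL-old females and in the CR-old mouse 06, so among AL-old mice the factor and sex cannot be told apart. With the factor taken into the fit as an offset, 40 member sites were called higher in AL-old and 23 lower in CR-old than in AL-old. All 21 sites called without it were among the 40.

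The Iroquois genes (Irx) had the most calls. These genes pattern heart, limb, brain and other tissues, and they lie in a pair of clusters, with Irx1, Irx2 and Irx4 on chromosome 13 and Irx3, Irx5 and Irx6 on chromosome 8. Of 19 Irx sites 8 were called higher in AL-old, or 42.1%, and they lay in Irx1, Irx2, Irx3 and Irx5. The count fell to 5 when AL-old 09, AL-young 16 or AL-young 30 was left out. The median difference over the family was 5.33 points, and 18 of 19 sites were higher in AL-old. In family means over the 16 sites read in every mouse, AL-young mice lay between 0.845 and 1.54% and AL-old mice between 1.47 and 26.8%, with a median of 3.19%. AL-old 08 was the only AL-old mouse inside the AL-young range in these raw means. In adjusted means every AL-old mouse, from 2.80 to 25.3%, lay above the highest AL-young mouse at 1.53%.

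At the site in Irx3 coding sequence shown above (chr8:94325078-94325083, 472 bp from the gene start), the AL-young values were 0.72, 0.61, 0.37, 0.22 and 0.28%. AL-old ran from 1.22 to 22.2% with a median of 5.77%, and CR-old gave 1.87, 0.90, 0.82, 0.80 and 0.91%. No AL-old mouse fell among the young, and every CR-old mouse lay above them by a small margin. The AL-old mean of 8.01% ± 7.58 (SD, n = 7) compared with 0.440% ± 0.216 (n = 5) in AL-young, with 3.89 as the log2 odds ratio, SE 0.73 (edgeR adjusted p = 0.000117; the ± after other log2 odds ratios is the SE). The nearby Irx3 site in an untranslated exon, 310 bp from the start (chr8:94325240-94325245), rose from 1.45% ± 0.756 to 13.9% ± 16.0 (log2 odds ratio 2.92 ± 0.74, edgeR adjusted p = 0.00445), again with no overlap. Both Irx3 sites also lie within the annotated gene D230002A01Rik, so their values cannot be assigned to Irx3 alone.

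Irx5 held 2 called sites, both in an untranslated exon. At 169 bp from the start (chr8:94881861-94881866) AL-young mice had 0.52 to 1.41%, AL-old mice 1.51 to 47.5% with a median of 6.46%, and CR-old mice 0.97 to 2.36%. The means of 0.860% ± 0.385 and 11.8% ± 16.2 differed with a log2 odds ratio of 3.12 ± 0.75 (edgeR adjusted p = 0.00228). The AL-old mice lay above the young without overlap, and AL-old 27 stood far above the other 6. At 259 bp (chr8:94881951-94881956) the rise was from 0.572% ± 0.144 to 6.61% ± 9.21 (log2 odds ratio 3.52 ± 0.96, edgeR adjusted p = 0.00843). There AL-old 09 held the highest value, 26.9% (61 of 228 reads, 95% Wilson interval 21.4 to 32.9%).

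Irx1 held 3 called sites, of which that at 284 bp (chr13:72100884-72100889) moved furthest, from 0.870% ± 0.319 to 13.6% ± 23.9 (log2 odds ratio 2.89 ± 0.83, edgeR adjusted p = 0.0131). The group mean leaned on AL-old 27 with 67.3% (153 of 227 reads, Wilson interval 61.1 to 73.2%), since the other AL-old mice ran from 0.70 to 8.67%. Without that mouse the call held. In adjusted values every AL-old mouse at this site, from 2.17 to 65.1%, lay above the highest AL-young mouse at 1.35%. At 363 bp, where all AL-old mice lay above all AL-young mice, the means were 2.13% ± 0.969 and 14.3% ± 19.4 (edgeR adjusted p = 0.0333). In Irx2, 2851 bp from the start, the difference of 6.99 points rested on the 3 AL-old mice with at least 50 reads. Irx4 and Irx6 had no called site, although Irx6 came near at 122 bp with 0.870 and 6.13% (edgeR adjusted p = 0.0869).

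**Figure D2:**
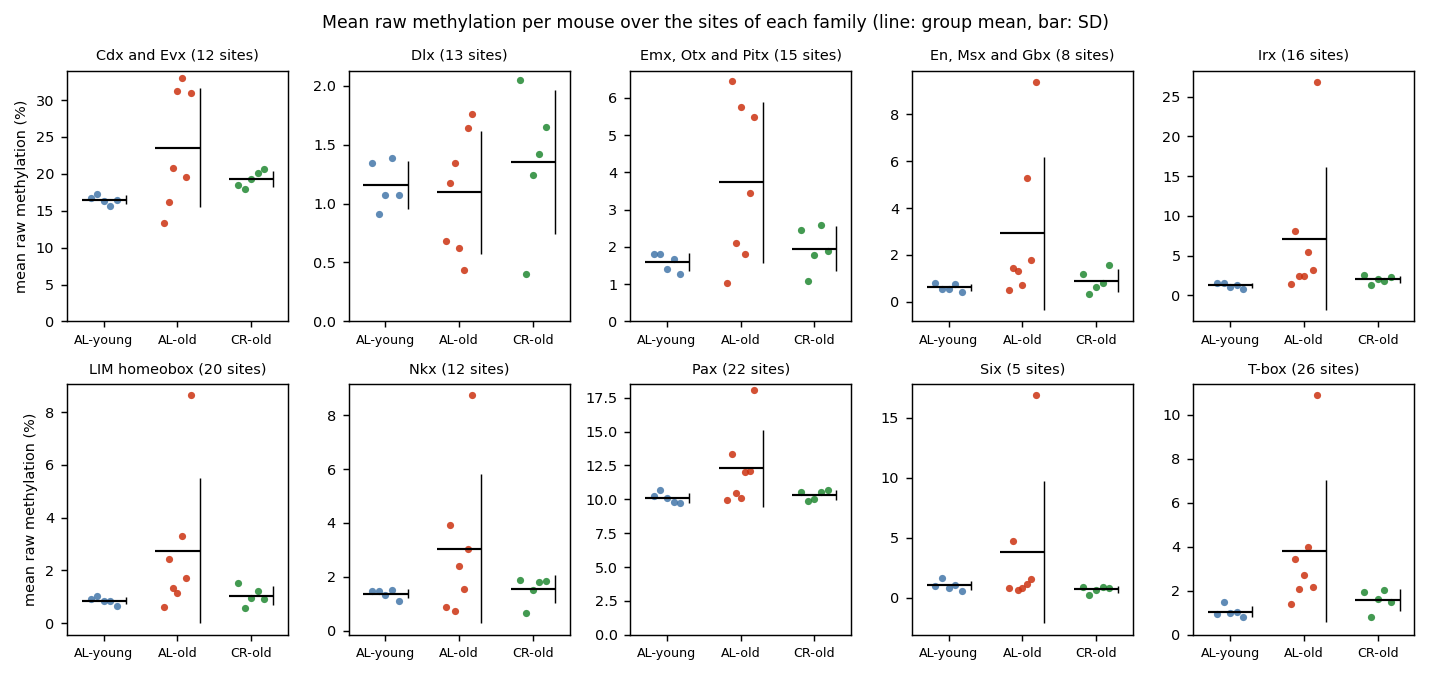
Mean raw methylation (percent, linear axes with a separate range for each family) per mouse over the sites with at least 50 reads in every mouse, with group mean (line) and SD (bar). In the Irx family AL-young mice lie between 0.845 and 1.54% and AL-old mice between 1.47 and 26.8%, while the Dlx groups overlap.

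Among the T-box genes only Tbx18 was called, at both of its sites, giving 2 of 26 sites in the family. Tbx18 acts in the sinus node of the heart, the ureter and the somites. At chr9:87625089-87625094, 1003 bp from the start, AL-young mice had 1.82, 2.53, 2.60, 1.46 and 1.93%, AL-old mice 4.61 to 59.2% with a median of 22.4%, and CR-old mice 4.34, 4.85, 3.75, 4.42 and 4.36%. CR-old lay wholly above AL-young and below all AL-old mice but AL-old 25, whose 4.61% (10 of 227 reads, Wilson interval 2.41 to 7.92%) lay inside the CR-old range. The AL-old mean of 25.8% ± 19.3 against 2.07% ± 0.486 in AL-young was the largest called difference among the members, 23.7 points (log2 odds ratio 3.80 ± 0.72, edgeR adjusted p = 0.000133). The companion site at 851 bp (chr9:87625241-87625246) had 0.66 to 5.21% in AL-young, 4.95 to 64.0% with a median of 12% in AL-old and 1.88 to 5.12% in CR-old, and was called with a log2 odds ratio of 3.44 ± 0.75 (edgeR adjusted p = 0.000793). The other T-box genes, Tbx1, Tbx2, Tbx3, Tbx4 and Tbx15, had 24 sites and no call, with AL-old means between 0.233 and 9.53%. Even so, 24 of the 26 T-box sites had a higher mean in AL-old than in AL-young, by a median of 0.893 points.

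Of the LIM homeobox genes, which specify neurons and several endoderm and heart lineages, Lhx8 and Isl1 were called at 4 of the family's 25 sites. Lhx8 directs cholinergic neurons of the forebrain, and all 3 of its sites were called. At the site shown above (chr3:153991547-153991552, 2065 bp from the gene start and 48 bp from the nearest annotated transcript start) the AL-young values were 0.33, 0.90, 0.28, 1.25 and 0.84%. AL-old ran from 1.92 to 50.2% with a median of 12%, and CR-old gave 3.72, 2.77, 3.69, 1.39 and 1.06%. All AL-old mice lay above all young mice, and the CR-old mice overlapped both groups. The means were 0.720% ± 0.410, 18.2% ± 18.7 and 2.53% ± 1.25, with a log2 odds ratio of 4.36 ± 0.85 between AL-old and AL-young (edgeR adjusted p = 0.000181).

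Isl1, required for motor neurons, pancreatic islets and cardiac progenitors, was called at 158 bp from its start (chr13:117099735-117099740). Its means were 0.322% ± 0.230 in AL-young, 4.03% ± 5.48 in AL-old and 0.652% ± 0.343 in CR-old (log2 odds ratio 3.61 ± 0.99, edgeR adjusted p = 0.00897). The raw AL-old values ran from 0.45 to 15.7% and overlapped the young. In adjusted values AL-old mice ran from 0.92 to 14.4%, all above the highest AL-young mouse at 0.66%. Without AL-old 27 the log2 odds ratio was 3.00 (edgeR adjusted p = 0.0274), and the call was lost only because the means were less than 2 points apart. Lhx1 and Lhx5 had 2 sites each, and at none of them did the AL-old mean exceed the AL-young mean, whereas Lhx4 and Lhx6 had a higher AL-old mean at all of their sites without a call.

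In the Cdx and Evx family, related to the Hox genes in sequence and position, 4 of 14 sites were called higher, 3 in Evx2 and 1 in Cdx2. Evx2 adjoins the Hoxd cluster. At chr2:74494067-74494072, in a coding exon, AL-young mice had 0.19, 0.28, 0.76, 0.25 and 0.19%, AL-old mice 2.03 to 34.2% with a median of 3.57%, and CR-old mice 3.89, 2.57, 0.92, 1.51 and 2.51%. Neither old group overlapped the young group. This was the lowest adjusted p among the members, with a log2 odds ratio of 5.37 ± 0.96 (edgeR adjusted p = 5.08e-05), and the AL-young level rested on few methylated reads, such as 1 of 196 in AL-young 28. The highest AL-old value, in AL-old 27, came from 20 of 59 reads (Wilson interval 23.1 to 46.6%).

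The Evx2 site at 4060 bp (chr2:74493855-74493860), also called, kept more methylation in CR-old than any other called site. Its AL-young values were 4.34, 3.85, 4.69, 2.75 and 2.66%, its CR-old values 19, 6.87, 11.5, 13.8 and 16.2%, and its AL-old values ran from 10.0 to 34.9% in the 6 mice with enough reads. CR-old did not overlap AL-young and did overlap AL-old, and the CR-old against AL-young test gave an edgeR adjusted p of 0.489. Cdx2, which maintains intestinal identity, was called at 533 bp (chr5:148118310-148118315) with means of 0.698% ± 0.323 and 4.96% ± 5.10 (log2 odds ratio 2.33 ± 0.77, edgeR adjusted p = 0.0358). Its AL-old mice ran from 0.41 to 15.1% and overlapped the young. The Cdx2 call was lost when any of AL-young 15, 28, 29 or 30 or AL-old 08, 09, 13 or 27 was left out, with log2 odds ratios of 1.90 to 2.33. The sites of Cdx1, already methylated in young mice, had AL-old means of 48.8 to 86.8% with SDs up to 31.4 and were not called, the lowest edgeR adjusted p being 0.291.

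In the Nkx family Nkx6-1, a regulator of pancreatic beta cells and motor neuron progenitors, was called at both of its sites and the other 3 measured Nkx genes at none, giving 2 of 15 sites. The count fell to 1 when any of AL-old 08, 09 or 13 or AL-young 15, 29 or 30 was left out. Both Nkx6-1 sites were read at 50 or more reads in only 13 mice. At 1513 bp (chr5:102092729-102092734) AL-young mice had 1.3, 0.45, 0.54, 0.46 and 0.92%, and the 3 AL-old mice with enough reads had 10.2, 3.36 and 7.50%. These rested on 5 of 53, 4 of 133 and 4 of 59 methylated reads, and the fit also used the shallower reads of the other AL-old mice. The log2 odds ratio was 4.62 ± 0.94 (edgeR adjusted p = 0.000309). At 1197 bp the 3 AL-old values were 15.7, 0.35 and 0.82%, so that a single mouse carried the difference (edgeR adjusted p = 0.0370). Nkx2-2 at 510 bp upstream of its start had means of 3.80% ± 0.908 in AL-young and 11.3% ± 11.3 in AL-old and was not called (edgeR adjusted p = 0.343).

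In the En, Msx and Gbx family, whose members pattern the midbrain, limb and face, 1 of 11 sites was called. It lay in an untranslated exon of En2 at 513 bp (chr5:28492746-28492751), with means of 0.662% ± 0.515 in AL-young and 7.49% ± 13.7 in AL-old (log2 odds ratio 3.25 ± 1.11, edgeR adjusted p = 0.0449). AL-old 14 held 38.1% (30 of 79 reads, Wilson interval 28.1 to 49.0%), and the other AL-old mice lay between 0.62 and 6.48%, overlapping the young. The call was lost without AL-young 16, 28, 29 or 30, AL-old 14 or 27, or CR-old 19, with log2 odds ratios of 2.33 to 3.23. The 3 Msx1 and 3 Msx2 sites were all higher in AL-old by their means, at 0.439 to 5.25%, without a call.

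**Figure D3:**
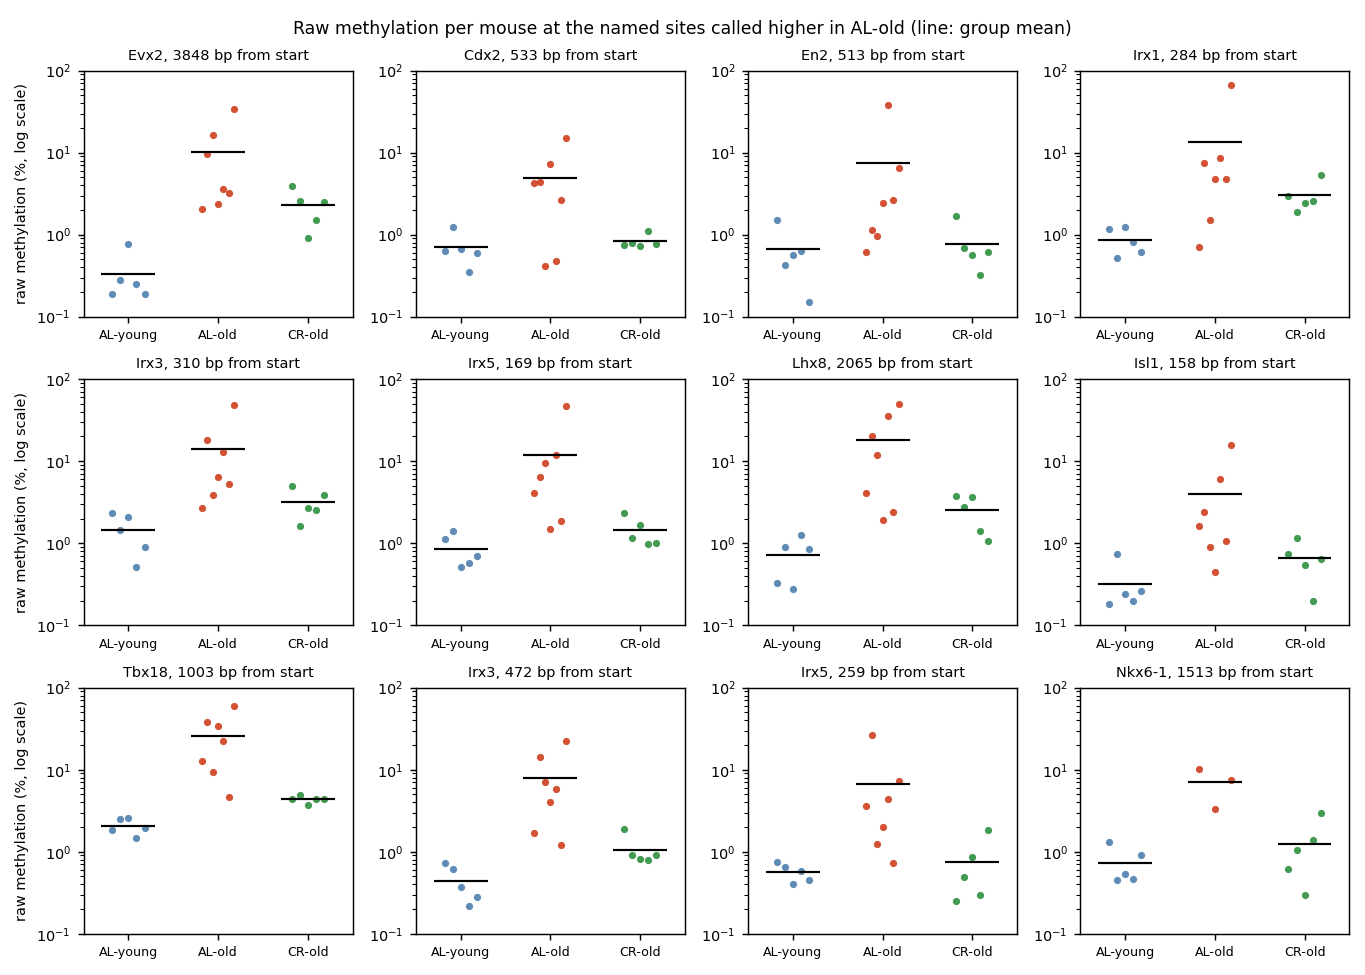
Raw methylation (percent, log axis) of each mouse at 12 named sites called higher in AL-old, with the group mean as a line. At 6 of the 12 sites, for example Irx3 at 472 bp and Tbx18 at 1003 bp, every AL-old mouse lies above every AL-young mouse, and the 3 points of AL-old at Nkx6-1 are the mice with at least 50 reads.

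No site was called in the other 4 families. In the fits that left out 1 mouse, 1 to 2 Pax sites were called higher without AL-old 08, 13, 25 or 27, and 1 site of the Emx, Otx and Pitx family without AL-old 08, 10, 13 or 25. In the Pax family, regulators of the eye, kidney, spine and muscle precursors, the largest difference was in a coding exon of Pax1 (chr2:147191666-147191671), with AL-young means of 4.66% ± 2.25 and AL-old means of 17.4% ± 17.7 (log2 odds ratio 1.61 ± 0.72, edgeR adjusted p = 0.153). AL-old 27 reached 53.8% there, and CR-old mice had 5.29 to 8.02%. In raw values AL-old 08, 10 and 13 lay between 2.71 and 5.21%, no higher than the young range of 3.05 to 8.55%. In adjusted values AL-old 08 and 13 lay at 9.92% or more, above the highest AL-young mouse at 7.73%. AL-old 10, at 7.4% adjusted, did not lie above it. A neighbouring Pax1 site at 4335 bp had 3.48 and 14.6% (edgeR adjusted p = 0.0589). Both Pax6 sites, at 96.8% in AL-young, had AL-old means of 98.7% ± 1.06 and 93.3% ± 14.7, and neither was called. In Six2, a kidney progenitor factor and the only measured gene of its family, the site 104 bp upstream of the start had 0.594% ± 0.278 in AL-young and 6.24% ± 12.1 in AL-old (edgeR adjusted p = 0.192), with 33.2% in AL-old 27 and 0.13 to 5.97% in the rest.

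In the Emx, Otx and Pitx family the largest difference was in an intron of Pitx1, a determinant of hindlimb identity. At the Pitx1 site shown above (chr13:55930555-55930560) AL-young mice had 0.84 to 2.66%, and AL-old mice ran from 0.79 to 36.9% with a median of 2.5%. The rise sat in AL-old 09 and 13 with 26.7 and 36.9%, while the other AL-old mice had at most 4.55% (log2 odds ratio 1.72 ± 0.84, edgeR adjusted p = 0.209). Emx2, a factor of cortex and urogenital tract, came closest to a call in this family at 1046 bp, with means of 1.40 and 6.65% (edgeR adjusted p = 0.0570).

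The Dlx genes act in the ventral forebrain and the face. Their median difference with age over 17 sites was 0.375 points, the smallest of the 10 families, and their AL-old means ran from 0.507 to 3.83%. The site with the largest difference, in an intron of Dlx4 (chr11:95004066-95004071) outside any island, had 6.75% ± 2.27 in AL-young, 3.32% ± 3.30 in AL-old and 8.50% ± 4.45 in CR-old. The log2 odds ratio of -1.44 ± 0.73 missed the threshold (edgeR adjusted p = 0.231), and it came to 0.133 with high or low correction factor as a covariate. The mean over 13 Dlx sites was 1.16% ± 0.201 in AL-young, 1.10% ± 0.522 in AL-old and 1.35% ± 0.609 in CR-old, and its sign of difference turned with the adjusted values, so no direction is given for it.

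The comparison of old mice on the 2 diets asked whether methylation at these sites differed under caloric restriction. Methylation was called lower in CR-old than in AL-old at 4 member sites, or 2.30%, and higher at 0, against 1.76% lower and 1.58% higher over all sites and 1.87% lower and 0.217% higher over all CpG island sites. The share lowered was thus near the background. Of the sites that were higher in CR-old, 5 reached an unadjusted p below 0.05 in edgeR, and limma also called 0. All 4 called sites, in Tbx18, Irx3, Irx5 and Nkx6-1, were also called higher in AL-old than in AL-young, and both comparisons share the AL-old mice. The CR-old mean lay below the AL-old mean at 140 of the 174 sites, with a median difference of -0.983 points, and above it at 19.5%, against 44.5% of all sites and 37.0% of all CpG island sites. At none of the 149 sites read in every mouse did all CR-old mice lie below all AL-old mice, against 0.482% of all sites with that depth.

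Tbx18 at 1003 bp gave the largest called difference between the diets. Its CR-old mean was 4.34% ± 0.392 (n = 5), a difference of -21.5 points from AL-old, with a log2 odds ratio of -2.63 ± 0.70 (edgeR adjusted p = 0.0207). The 472 bp site of Irx3 had a CR-old mean of 1.06% ± 0.455 and a log2 odds ratio of -2.55 ± 0.71 (edgeR adjusted p = 0.0267). The AL-old and CR-old ranges of this Irx3 site overlapped, since AL-old 08 and 25 had 1.69 and 1.22% and CR-old 02 had 1.87%. Both calls were lost when AL-old 09, CR-old 19, CR-old 20 or CR-old 22 was left out, with log2 odds ratios of -2.64 to -2.39 for Tbx18 and -2.51 to -2.26 for Irx3.

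At Irx5, 259 bp from the start, CR-old mice had 0.25, 0.49, 0.87, 0.30 and 1.85% against AL-old values from 0.72 to 26.9% with a median of 3.66%. The log2 odds ratio was -3.36 ± 0.96 (edgeR adjusted p = 0.0329), and the call was lost without any of AL-old 09 or 14 or CR-old 02, 06, 19 or 20, with log2 odds ratios of -3.59 to -2.80. Nkx6-1 at 1513 bp had CR-old values of 0.62, 1.06, 0.30, 1.38 and 2.94%, all below the 3 AL-old values listed above (log2 odds ratio -4.06 ± 0.94, edgeR adjusted p = 0.00663). This call held in every fit that left out 1 mouse.

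The CR-old and AL-old groups differed also in age and in the numbers of each sex, by label, and in the correction factor. In a fit limited to AL-old and CR-old, 1 member site was called lower. With the factor class (high or low) as a covariate 4 sites were called lower, of which 1 was among the 4 above, and among mice with a factor below 1.3, which left 2 AL-old and 4 CR-old mice, 12 were called lower and none of them was among the 4. The direction held at all 4 sites in each of these fits. In the fit limited to the compared groups the log2 odds ratios were -2.62 for Tbx18, -2.55 for Irx3 and -3.27 for Irx5, and with the covariate -2.60, -2.65 and -3.31 (edgeR adjusted p = 0.0676, 0.0575 and 0.0716). Among mice with a factor below 1.3 they were -2.86, -2.71 and -3.36 (edgeR adjusted p = 0.0877, 0.108 and 0.0961). Nkx6-1 there had a log2 odds ratio of -5.02 with an edgeR adjusted p of 0.0439, and it was not called because no AL-old mouse with 50 reads was left to give a group mean.

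Between CR-old and AL-young, which differ in both age and diet, 0 member sites were called in either direction, and 0.0% of all sites were. In this comparison 7 member sites, or 4.02%, had an unadjusted p below 0.05 in edgeR, as did 1289 of all 18884 sites. At the members limma also called 0. The CR-old mean exceeded the AL-young mean at 119 of 174 sites, or 68.4%, against 37.8% of all sites and 50.7% of all CpG island sites. The median difference was 0.156 points over all members, -0.056 over all sites and 0.002 over all CpG island sites. The largest differences among sites that were low in young mice were 9.82 points at the 4060 bp site of Evx2 described above, 4.80 points in Tbx1, a gene of the pharyngeal arches, and 4.14 points in En2.

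The members' mean over the 149 sites read in every mouse was 3.70% ± 0.215 in AL-young, 6.51% ± 3.33 in AL-old and 4.22% ± 0.439 in CR-old. Of the 7 AL-old mice, 6 lay above the highest AL-young mouse at 4.00%, and so did 4 of the 5 CR-old mice. AL-old 27 stood apart with 13.6%, against 3.32 to 6.82% in the other 6, and without it the age difference in this mean was 1.64 points in place of 2.82, and the diet difference -1.11 in place of -2.29. With adjusted values the means were 3.75, 8.20 and 4.39%. On that scale all 7 AL-old and all 5 CR-old mice lay above the highest AL-young mouse at 3.81%, and the CR-old mice, from 4.26 to 4.54%, all lay below the AL-old mice, from 4.84 to 12.8%, whereas with raw values 0 of 5 CR-old mice lay below every AL-old mouse. Within males the age difference in the raw mean was 5.84 points and within females 1.46 points. The diet difference was -5.04 points within males and -1.34 points within females. The fits within a sex called 0 sites, with 2 AL-old males, 2 AL-young females and 2 CR-old females.

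**Figure D4:**
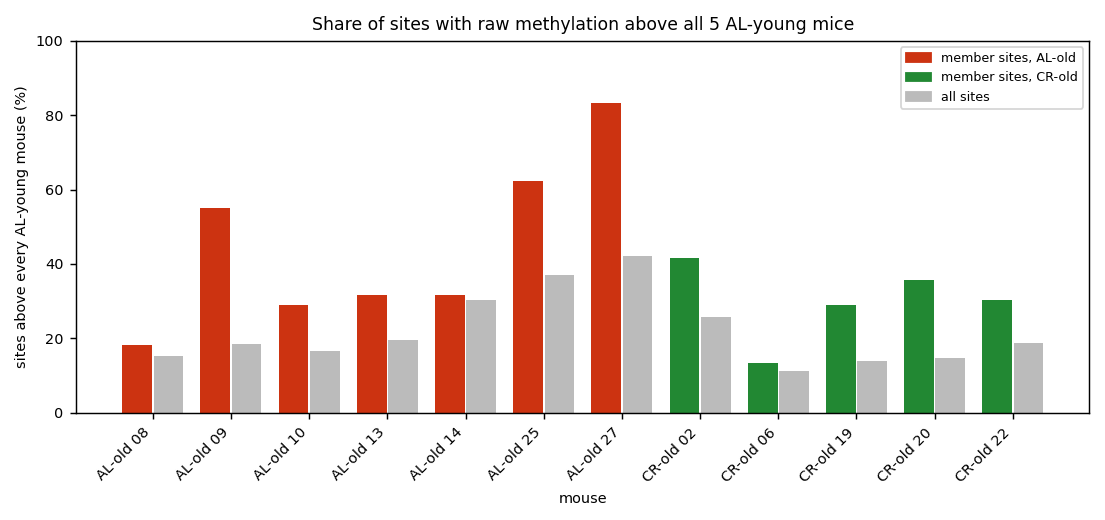
For each old mouse, the share (percent) of the 149 member sites (colour) and of all 15568 sites with at least 50 reads in every mouse (grey) at which its raw methylation exceeded all 5 AL-young mice. Member shares run from 18.1 to 83.2% in AL-old (lowest in AL-old 08, highest in AL-old 27) and from 13.4 to 41.6% in CR-old, and each lies above the grey bar of the same mouse. Against CpG island sites with an AL-young mean under 5%, which the plot leaves out, this holds in all old mice but AL-old 08, with 18.1% at members and 19.3% at such sites.

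Individual old mice differed widely. AL-old 27 exceeded all young mice at 83.2% of member sites and at 42.3% of all sites, AL-old 25 at 62.4 and 36.9%, and AL-old 09 at 55.0 and 18.4%. AL-old 08, by contrast, exceeded them at 18.1% of member sites and 15.4% of all sites. Over CpG island sites with an AL-young mean under 5% the shares of these mice were 50.8, 42.1, 15.6 and 19.3%, so that AL-old 08 lay below this background at the members. In raw values AL-old 27 had the highest family mean within its group in 8 of the 10 families and AL-old 08 the lowest in 7, and in adjusted values these counts were 5 and 1. In CR-old the highest share was 41.6% in CR-old 02 and the lowest 13.4% in CR-old 06, which had the only high correction factor of its group. The raw mean of CR-old 06 was the lowest of its group in all 10 families, but its adjusted mean was the lowest in 6 and the highest, 21.7%, in Cdx and Evx. AL-old 25 and 27 were the 2 AL-old males and the 2 AL-old mice with a factor below 1.3, and AL-old 27 had the fewest reads of all mice. The part of sex, factor or depth in these differences was not tested.

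Island membership and CpG content were not used to choose the members, whereas every position lies within the window of the rule. All 21 sites called with age lay in CpG islands, and 0 of 25 member sites outside islands were called. Over all sites outside islands 111 of 7384 were called higher and 1055 lower, against 634 and 78 of 11500 in islands. Higher calls were thus rare outside islands over all sites as well, and 25 sites are too few to set the members apart in this. The called sites lay from 158 to 4060 bp downstream of the gene start, 9 in coding exons, 7 in untranslated exons and 5 in introns. None of the 19 sites upstream of a start was called, although 18 of those lay in islands and their median difference was 1.41 points. Within 500 bp downstream of the start 7 of 36 sites were called, from 501 to 2000 bp 8 of 58, and beyond 2000 bp 6 of 61. These counts were not compared with all sites at the same distances, and a link between calls and position was not tested. Outside the members, sites upstream of the start were called higher in the homeobox genes Lmx1a and Barhl2. Around the called sites there was a median of 12.2 CpG per 100 bp and a GC content of 73.2%, against 7 CpG per 100 bp and 62.2% around the other member sites. Of the 153 other sites 128 lay in islands, so this contrast includes island membership. It was not made within islands or over all sites. The median AL-young mean was alike, at 0.860 and 0.960%, and the called sites were read less deeply, with a median of 196 reads against 387.

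**Figure D5:**
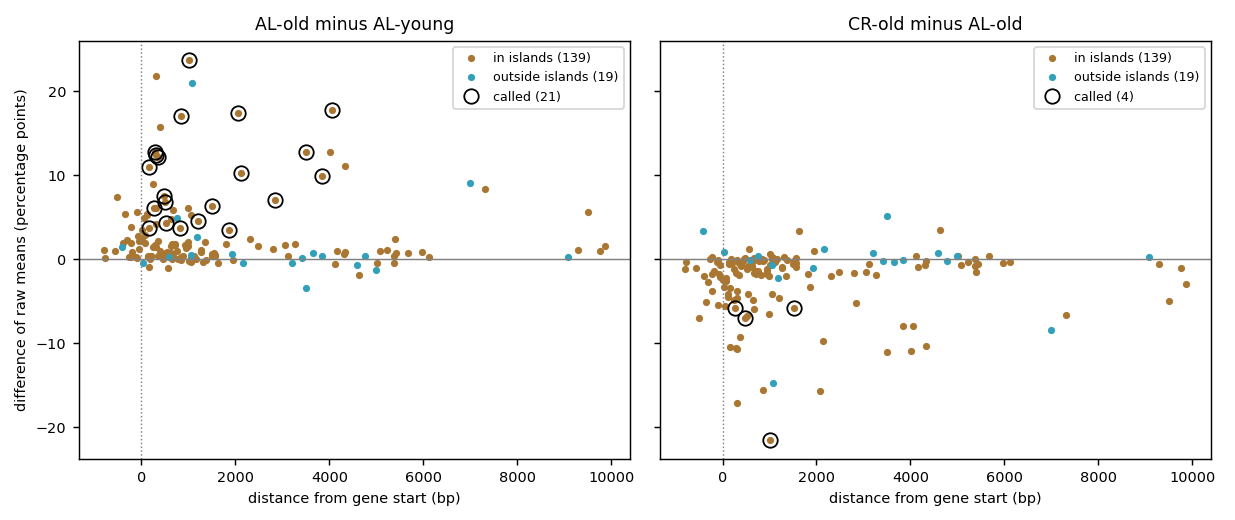
Difference of raw group means (percentage points) against distance from the gene start (bp) for the 158 member sites within 10000 bp of it, AL-old minus AL-young on the left and CR-old minus AL-old on the right. The 21 called sites on the left (circled) all lie in islands from 158 to 4060 bp downstream of the start, and the 4 called on the right are among them.

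The other homeobox, paired and T-box genes outside the 58 gave a smaller share. Of their 145 sites in 41 of 65 listed genes, 5 were called higher in AL-old, or 3.45%, and 3 lower. The sites that rose furthest were in Tlx3, a neuronal homeobox gene, where 2.48% ± 0.896 in AL-young compared with 26.1% ± 18.1 in AL-old and 5.31% ± 1.79 in CR-old at 591 bp from the start (log2 odds ratio 3.60 ± 0.73, edgeR adjusted p = 0.000287), and in Lmx1a, a factor of dopaminergic neurons, 643 bp upstream of the start, with 1.40% ± 0.820 and 15.4% ± 14.6 (edgeR adjusted p = 0.00710). The 3 that fell were methylated in young mice, such as Prrx2 at 17221 bp with 74.8% ± 4.46 in AL-young and 25.9% ± 28.6 in AL-old (edgeR adjusted p = 0.000345). Of 40 sites in 17 of 39 Hox cluster genes 6 were called higher, or 15.0%, and of 41 sites in ribosomal protein genes, which are active in all cells, 0 were called in either direction and the median difference was -0.00229 points. The members and these lists were chosen with earlier results of these data known, and whether the lists differ was not tested.

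For marker genes only sites from 1000 bp before to 500 bp after the gene start were searched. None of the listed genes of B cells (11 genes), T cells (14), myeloid cells (17) or leukocytes in general (10) had such a site at this depth. Blood cell composition could therefore not be read from these sites. Of 7 epithelial and liver markers, Krt8 had 1 site, at 48.2% ± 3.79 in AL-young, 59.2% ± 15.1 in AL-old and 53.1% ± 5.25 in CR-old, and it was not called. The part of cell composition in the results was not tested.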

How the data were processed

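DREAM tables of 17 whole blood samples, 1 per mouse, were analysed. The deposited tables hold read counts (methylated, unmethylated and all reads) per CCCGGG site, and 2 forms of percent methylation made by the authors, raw and adjusted. The raw percent is 100 (m + 0.5) / (n + 1) for m methylated of n reads, and the adjusted percent multiplies its odds by 1 factor per mouse from spiked standards. Bowtie2, SAMtools, mm9 and mm10 are listed in the submitters' processing notes without roles. All 173449 genomic positions lay on a CCCGGG in NCBIM37 (mm9), and genes came from GENCODE release M1. Site positions are distances from the gene start, negative upstream. CpG islands were called on the assembly (at least 200 bp, GC at least 50%, observed over expected CpG at least 0.6).

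Groups came from the labels. The 18884 autosomal sites that reached 50 reads in 13 or more mice were tested. Counts were fitted with edgeR 4.0.16 (quasi-likelihood F test, R 4.3.3) with a coefficient per mouse, methylation by group over all 3 groups, and 1 dispersion for all sites. Counts of all 17 mice entered the fit, and group means used mice with at least 50 reads. A call required a Benjamini-Hochberg adjusted p below 0.05 over all sites and raw means at least 2 points apart. limma 3.58.1 on log odds was an alternative, with other depths, offsets, covariates and left-out mice. On data simulated for AL-old against AL-young (4000 sites), the fit recovered 30 of 109 changes of 2 and 51 of 91 changes of 4 on the log2 odds scale, with 5 false calls. The simulation used the same setting of spread between mice in all groups. At the called member sites the median SD was 9.43 points in AL-old and 0.410 in AL-young, so these rates need not hold for the data.

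Named sites were, in each family, up to 3 called sites of largest difference with age, at most 1 per gene and with 50 reads in all mice, or the site of largest difference where none was called, and up to 5 called sites per direction for diet. Other sites were named after their values were seen. The members and the gene lists were chosen with earlier results of these data known. At 50 reads the smallest share that 3 reads can show is 6%, and at the median depth 0.756%. Intervals cover counting error only, since PCR reads are not independent molecules. The labels tie each sample to a numbered mouse. Adapter type and date per mouse are not given in the sources used here. Middle-aged mice were not analysed here, and no RNA was used.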

Additional observations from a re-analysis of the deposited data

Results flagged for a closer look

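Within groups of 5 or 7 mice, 22 of 80 sets of raw values had an end value set far apart from the rest by Dixon's criterion. Adjusted values were not put to this criterion. For independent sets of normally distributed values this is met in about 1 in 20 sets. The sets are not independent, since family means and sites share mice, and no explanation was tested.

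Most of these concerned AL-old 27, a male with a correction factor of 0.904 and the fewest reads. Its family means were the highest of AL-old by such a gap in Irx (26.8%, others up to 8.05%), LIM homeobox (8.64%, others up to 3.30%), Nkx (8.74%, others up to 3.92%), Pax (18.1%, others up to 13.3%), the Six2 sites (16.9%, others up to 4.74%) and T-box (10.9%, others up to 3.97%). Its mean over all member sites was 13.6% against at most 6.82% in the other AL-old mice. In adjusted values this mean was 12.8%, with 10.7% in AL-old 09 and 10.0% in AL-old 13. Its adjusted Irx mean was 25.3%, with 15.7% in AL-old 09. In Nkx and Pax the adjusted mean of AL-old 09, 8.11 and 17.5%, was above that of AL-old 27, 8.03 and 17.2%. At single sites it stood apart with 67.3% in Irx1 at 284 bp, 47.9% in Irx3 at 310 bp, 47.5% in Irx5 at 169 bp, 15.7% in Isl1 at 158 bp, 53.8% in Pax1 at 4008 bp and 33.2% in Six2 104 bp upstream.

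Other AL-old mice stood apart at 1 site each. AL-old 14 had 38.1% at En2 513 bp, where the others had at most 6.48%. AL-old 09 had 26.9% at Irx5 259 bp, where the others had at most 7.36%. AL-old 25 had 10.4% at Dlx4 3508 bp, where the others had at most 3.93%.

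In the other groups the values set apart were low in absolute terms. AL-young 28 had 0.76% at Evx2 3848 bp, and AL-young 16 had 0.73% at Isl1 158 bp and 8.55% at Pax1 4008 bp. CR-old 20 had 1.11% at Cdx2 533 bp, and CR-old 02 had 1.70% at En2 513 bp and 1.87% at Irx3 472 bp.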

How the results depend on the processing

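The count of 21 sites higher in AL-old was 12 at a depth of 100 reads (148 sites), 40 with the correction factor as offset, 65 in mice with a factor below 1.3, and 0 within females and within males. The count of 4 sites lower in CR-old than in AL-old was 23 with the offset, 12 in mice with a factor below 1.3, 1 in a fit of the compared groups, and 0 within females and within males. Between CR-old and AL-young, 2 sites were called higher in mice with a factor below 1.3 and 3 in a fit of the compared groups. limma called 16 and 3 sites for age and diet. Leaving out 1 mouse gave 14 to 27 sites higher in AL-old, with 14 without AL-young 30, and 1 to 12 lower in CR-old, with 12 without AL-old 25, 10 without AL-old 08, 8 without AL-young 30, 7 without AL-old 10 or 13, 2 without CR-old 22, and 1 without AL-old 09, CR-old 19 or CR-old 20. The difference of member means kept its sign in all settings, from 1.46 to 5.84 points for age and from -5.04 to -1.11 for diet.

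The log2 odds ratio of Dlx4 at 3508 bp turned to 0.133 with the factor as covariate. The Dlx mean difference with age, -0.0613 points, turned to 0.607 with adjusted values, 0.216 at 100 reads, 0.126 at 20 reads, 0.544 in mice with a factor below 1.3 and 0.523 within males, and lay between -0.172 and 0.0487 with 1 mouse left out. For diet the Dlx difference of 0.258 turned to -0.402, -0.174 (100 reads), -0.110 (factor below 1.3) and -0.261 (males). Within females the Dlx differences were -0.272 for age and 0.372 for diet. The causes were not tested. Pax1 at 4008 bp and Six2 were called with the offset and in mice with a factor below 1.3. No paired analysis was possible because the groups share no replicate numbers.

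Limits are the small groups, the factor that is high in all AL-old females, and bulk blood. A further limit is 1 mouse, AL-old 27, behind much of the spread in raw values. At 50 reads a share below 6% in 1 mouse rests on fewer than 3 methylated reads.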
